A study of Mus musculus with 6 samples.

Results

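This account follows 10 genes that encode ligands of immune checkpoint receptors, chosen by name: Cd274, Pdcd1lg2, Cd80, Cd86, Cd276, Vsir, Nectin2, Pvr, Cd47 and Sirpa. All 10 were present among the 13264 measured targets. Strictly, Cd274 and Pdcd1lg2 are the ligands of PD-1, Cd80, Cd86, Cd276 and Vsir are their B7 relatives, Nectin2 and Pvr belong to the nectins, and Cd47 and Sirpa are a ligand and its receptor. Levels were measured by GeoMx whole transcriptome profiling, in which probes against each transcript carry a tag that is cut off under light within a marked area and sequenced, in 6 Desmin-positive, CD45-negative regions of mouse cholangiocarcinoma (bile duct cancer) grown from the SB murine line. This gate was meant for the fibroblasts of the tumour, including stellate cells that had become activated. The tumours of 3 regions came from Cd274+/+ mice and those of the other 3 from Cd274F/F mice, in which both Cd274 alleles are floxed, and both genotypes carried Col1A1Cre. They are called control and floxed here, names that follow the labels alone. The Cre is driven by a collagen promoter, so cells in which that promoter is silent, and tumour cells of the SB line, would not lose the gene by this route. No label gives the animals' age or ties a region to an animal. Regions of a group may therefore share an animal, and the p-values below, which rest on the spread between regions, would then be too small. The file headers place every area on a single slide, numbered 11 to 13 for the floxed and 14 to 16 for the control group, so genotype and this block of numbers cannot be told apart.

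T cells weigh an activating signal through CD28 against inhibitory signals through CTLA-4 and PD-1. CD80 and CD86, carried mainly by dendritic cells and macrophages, bind both CD28 and CTLA-4, whereas PD-L1 (Cd274) and PD-L2 (Pdcd1lg2) bind PD-1 and restrain T cells that have already been activated. Interferon gamma, acting in part through IRF1, is the classical inducer of Cd274 in tumour and stromal cells. The nectin proteins CD112 and CD155 engage the inhibitory receptor TIGIT and the activating receptor CD226, and CD47 binds SIRP alpha on phagocytes to hold back engulfment.

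Signals differed strongly in overall size between the groups. The summed signal was 720786 to 1024180 in the control and 223253 to 393615 in the floxed regions, and the middle target shifted by -1.22 (log2) in the values as deposited. Values below were therefore scaled so that the upper quartile (the 75th percentile) of every region was the same, after which the median target stood at 0.02. Changes were taken from log2(value + 1), so that those of faint genes come out too small. The negative probe, which matches no mouse transcript, then read 5.50 ± 0.17 in the control and 6.42 ± 1.28 in the floxed regions (SD, n = 3 each) and serves as background. Each region's values came in whole steps of its own size. If a step is 1 tag, member values rested on 9 to 161 tags in the control and on 3 to 62 tags in the floxed regions, and the 95% intervals (exact Poisson) given below cover counting error only. The collected areas held signal of their intended cells and of others: Col1a1 read 3353 ± 749 and 1944 ± 525 and Des 35.3 ± 9.08 and 41.1 ± 14.2 in the control and floxed regions (SD, n = 3 each). Ptprc, which encodes CD45, was not absent and read 29.3 ± 5.20 and 53.7 ± 17.8 (SD, n = 3 each), with an adjusted p of 0.274 (limma). Alb, the albumin gene of hepatocytes, read 2659 ± 599 and 3760 ± 2238 (SD, n = 3 each), above Col1a1 in the floxed mean.

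For orientation, the promoter windows of the PD-1 ligand pair and of the members with the lowest floxed levels relative to control are shown. They are the 140 bases that end just before the annotated start, from RefSeq on build GRCm38.p6, which held windows for 7 of the 10 members. Capitals mark the GC box GGGCGG on either strand, a motif bound by Sp1-type factors.
Cd274, chr19:29367298-29367437, plus strand: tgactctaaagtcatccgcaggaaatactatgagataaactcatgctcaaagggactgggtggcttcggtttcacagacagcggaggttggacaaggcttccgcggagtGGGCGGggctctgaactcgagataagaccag
Pdcd1lg2, chr19:29410779-29410918, plus strand: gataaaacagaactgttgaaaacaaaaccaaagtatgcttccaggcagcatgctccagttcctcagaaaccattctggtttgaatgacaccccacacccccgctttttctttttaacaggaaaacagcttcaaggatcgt
Cd276, chr9:58555034-58555173, minus strand: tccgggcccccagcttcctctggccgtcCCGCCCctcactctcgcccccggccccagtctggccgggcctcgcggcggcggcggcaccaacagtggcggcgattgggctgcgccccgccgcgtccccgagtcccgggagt
Nectin2, chr7:19749574-19749713, minus strand: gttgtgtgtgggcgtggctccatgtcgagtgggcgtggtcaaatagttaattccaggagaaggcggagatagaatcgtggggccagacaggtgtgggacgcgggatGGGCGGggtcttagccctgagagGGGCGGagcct
The GC content was 52.9% for Cd274, 42.9% for Pdcd1lg2, 79.3% for Cd276 and 61.4% for Nectin2, against a median of 54.3% over 32851 promoter windows of that length. A GC box was present in 28.1% of all these windows. The cores of the interferon elements ISRE (GAAA, any 2 bases, GAAA) and GAS (TTCNNNGAA), searched on both strands, occurred in 1.47% and 3.75% of all windows and in none of the 8 windows of the 7 members. The absence of these letters from so short a window says nothing of elements elsewhere.

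Across the 10 members none was called different between the genotypes by limma, with p adjusted by Benjamini-Hochberg over all targets and a threshold of 0.05. Of all targets 0.694% were called, 0.581% higher and 0.113% lower in the floxed regions. The unadjusted p was under 0.05 for 3 members, Cd276, Cd86 and Nectin2, against 12.7% of all targets. The same 3 were the members whose groups did not overlap: Cd86 was higher in every floxed region than in any control region, and Cd276 and Nectin2 were lower in every floxed region. Over all targets 19.1% did not overlap, which stands beside the 3 of 10 members. Of the members 6 had changes above and 4 below 0, with a median log2 change of 0.07 beside 0.02 for all targets. Their summed signal, to which the abundant genes contribute most, was 393 to 430 in the control and 333 to 387 in the floxed regions, with no overlap.

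**Figure D1:**
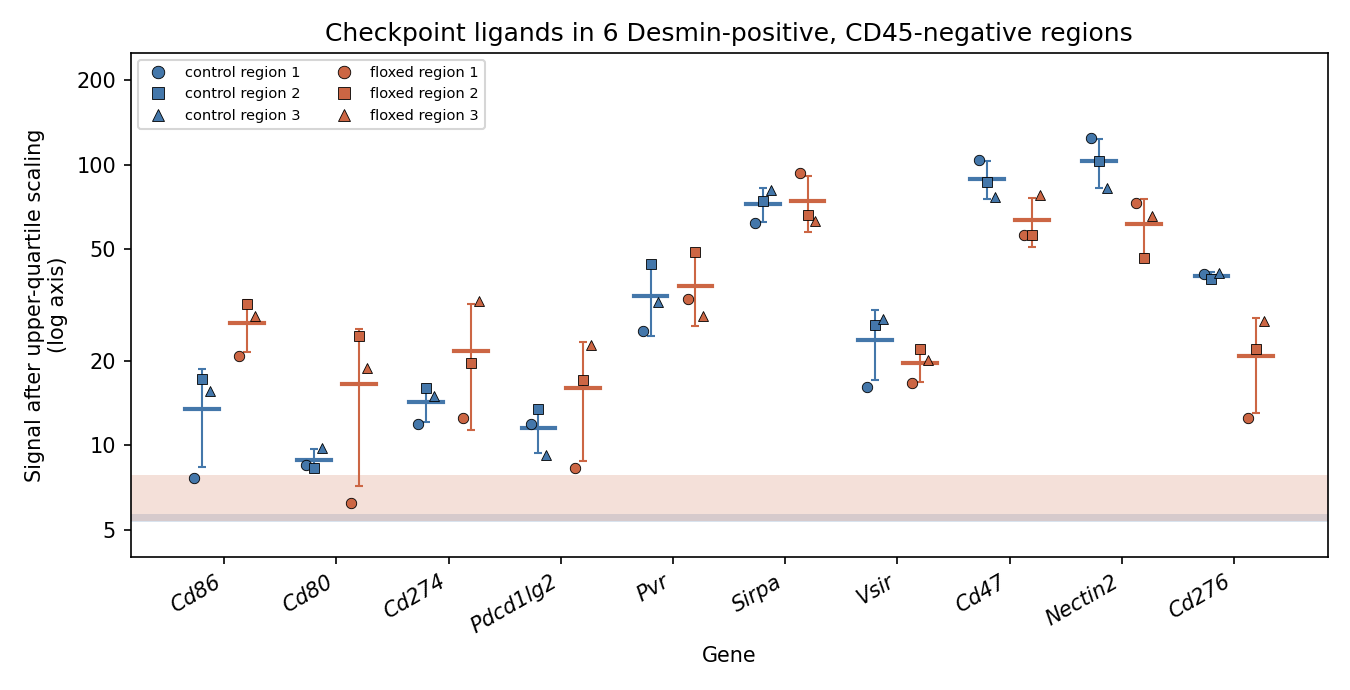
Signal of each gene in each region after upper-quartile scaling, on a log axis, with points for the regions, a bar for the group mean and whiskers for the SD (n = 3 regions each); the shaded bands span the negative probe in the control (blue) and floxed (orange) regions. Cd86 separates upward and Cd276 and Nectin2 downward in the floxed regions, while Cd80 lies under 2 times the negative probe in 4 of 6 regions, Pdcd1lg2 in 2 and Cd274 in 0.

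Cd274, the floxed gene itself, read 11.9, 16.0 and 15.0 in control regions 1, 2 and 3 and 12.5, 19.6 and 32.8 in floxed regions 1, 2 and 3. The first floxed region lay within the control range, the second just above it and region 3 well above it. The log2 change was 0.47 ± 0.36 (SE), with a 95% interval from -0.31 to 1.25 and an adjusted p of 0.610 (limma). Counting error was wide: the intervals were 4.58 to 27.2 and 8.46 to 38.6 in floxed regions 1 and 2, which include every control value, and 21.4 to 48.1 in floxed region 3, which includes none. Without floxed region 3 the log2 change was 0.13. Against the negative probe Cd274 stood at 2.09, 2.93 and 2.81 times in the control and 2.33, 2.50 and 5.41 times in the floxed regions. Its rank among all targets of the same region, which no scaling alters, was at percentiles 18.6, 31.3 and 29.2 in the control group and 22.2, 27.8 and 64.8 in the floxed group. As deposited, the change was -0.76 ± 0.40 (SE, adjusted p 0.0712, limma), so the sign depends on the scaling. A lower Cd274 signal in the floxed regions relative to other genes was thus not detected in these areas. The part of the transcript that the probe binds, against the floxed part, is not given in the sources at hand, and the gene's signal does not check the labels. In bulk areas such as these, fewer cells of a type and less RNA per cell cannot be told apart.

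Pdcd1lg2, the neighbour of Cd274 on chromosome 19, which encodes PD-L2, was likewise highest in floxed region 3 and next highest in floxed region 2. It read 11.9, 13.5 and 9.25 in the control and 8.33, 17.1 and 22.7 in the floxed regions, so that the groups overlapped, with floxed region 1 lowest and region 3 highest of all. Its log2 change was 0.36 ± 0.42 (SE), with an interval from -0.55 to 1.26 and an adjusted p of 0.767 (limma). The ratio of Cd274 to Pdcd1lg2 within a region is free of scaling. It was 1.00, 1.19 and 1.62 in the control and 1.5, 1.14 and 1.44 in the floxed regions, and these ranges overlapped. Over the 6 regions Pdcd1lg2 was the member whose log2 level followed that of Cd274 most closely, at a Pearson r of 0.88, ahead of Cd80 at 0.77 and Cd86 at 0.71. All these points share the same 6 regions and low tag numbers, and the values describe these regions only.

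Targets with the closest pattern to Cd274 over the 6 regions were Capg, a gelsolin-like actin filament capping protein, at r = 0.99, and Nedd8, a ubiquitin-like modifier, Cep162, a centrosomal protein, Nup62, a nuclear pore protein, and Syt12, a synaptotagmin, all at r = 0.98. They were taken from 12217 other targets at 2 or more times the negative probe, of which 122 exceeded r = 0.9. The highest of so many values over only 6 regions can be high for unrelated genes. Cd274 itself rested on only 6 and 8 steps in floxed regions 1 and 2, and shared regulation was not tested. Capg read 26.3, 32.0 and 28.9 in the control and 27.1, 36.7 and 58.0 in the floxed regions, with the same high floxed region 3 as Cd274.

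The costimulatory ligands Cd80 and Cd86 gave the highest positive changes among the members. Cd86 read 7.65, 17.3 and 15.6 in the control and 20.8, 31.8 and 29.0 in the floxed regions. All 3 floxed values exceeded the highest control value, a feature that 10% of all targets shared in this direction. The log2 change was 1.01 ± 0.34 (SE), with an interval from 0.27 to 1.75 and an adjusted p of 0.251 (limma), and its size is uncertain because control region 1 lay at only 1.34 times the negative probe. By rank within the region Cd86 lay at percentiles 4.78, 35.6 and 31.1 in the control group and 44.8, 61.2 and 59.0 in the floxed group, again with no overlap. As deposited, where nearly all genes were lower, its change was -0.24 ± 0.39 (SE, adjusted p 0.566, limma), the least negative of the 10 members.

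Cd80 read 8.50, 8.33 and 9.83 in the control regions, at most 1.84 times the negative probe, and 6.24, 24.5 and 18.9 in the floxed regions. In floxed region 1 it rested on 3 steps and was near background at 1.16 times the negative probe, whereas regions 2 and 3 stood at 3.12 times each. The groups overlapped, and the change of 0.65 ± 0.50 (SE) had an adjusted p of 0.622 (limma). The ratio of Cd86 to Cd80 was 0.90, 2.08 and 1.59 in the control and 3.33, 1.30 and 1.53 in the floxed regions and did not separate the groups.

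Cd276, which encodes B7-H3, a B7 protein made by fibroblasts, endothelium and many tumours, had the tightest control values and the lowest change of the members. It read 40.8, 39.1 and 41.0 in the control regions, a coefficient of variation of 2.67%, and 12.5, 22.0 and 27.8 in the floxed regions, where it was 37.1%. Every floxed value lay below every control value, as for 9.08% of all targets. The log2 change was -0.99 ± 0.29 (SE), with an interval from -1.63 to -0.36 and an adjusted p of 0.182 (limma). By rank it lay at percentiles 74.2, 72.6 and 74.3 in the control group and 22.2, 35.0 and 56.7 in the floxed group. The counting interval was 4.58 to 27.2 in floxed region 1, where the value rested on 6 steps, and included no control value. Those of 10.1 to 41.8 and 17.4 to 42.0 in floxed regions 2 and 3 included every control value. In control regions 1, 2 and 3 the intervals were 30.1 to 54.1, 29.9 to 50.2 and 32.1 to 51.8, which included no floxed value. They were much wider than the spread of the control values, so counting error alone would allow a wider spread. The negative probe was passed 7.16, 7.15 and 7.67 times in the control but only 2.33, 2.81 and 4.58 times in the floxed regions.

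Within-region ratios set these opposite differences beside each other without any scaling, for pairs chosen after their values were seen and so with no test. The ratio of Cd274 to Cd276 was 0.29, 0.41 and 0.37 in the control and 1.00, 0.89 and 1.18 in the floxed regions. That of Cd86 to Cd276 was 0.19, 0.44 and 0.38 against 1.67, 1.44 and 1.05. Both ratios were higher in every floxed region than in any control one. They share the denominator Cd276, itself lower in every floxed region, so their separation in part restates that difference. The ratio of Sirpa to Cd47 was 0.60, 0.85 and 1.06 in the control and 1.67, 1.17 and 0.81 in the floxed regions and overlapped.

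Vsir, the gene of VISTA, an inhibitory B7 relative found on myeloid cells, read 16.1, 26.9 and 28.3 in the control and 16.6, 22.0 and 20.2 in the floxed regions. Its groups overlapped, and the log2 change of -0.23 ± 0.29 (SE) had an interval from -0.87 to 0.40 and an adjusted p of 0.783 (limma).

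**Figure D2:**
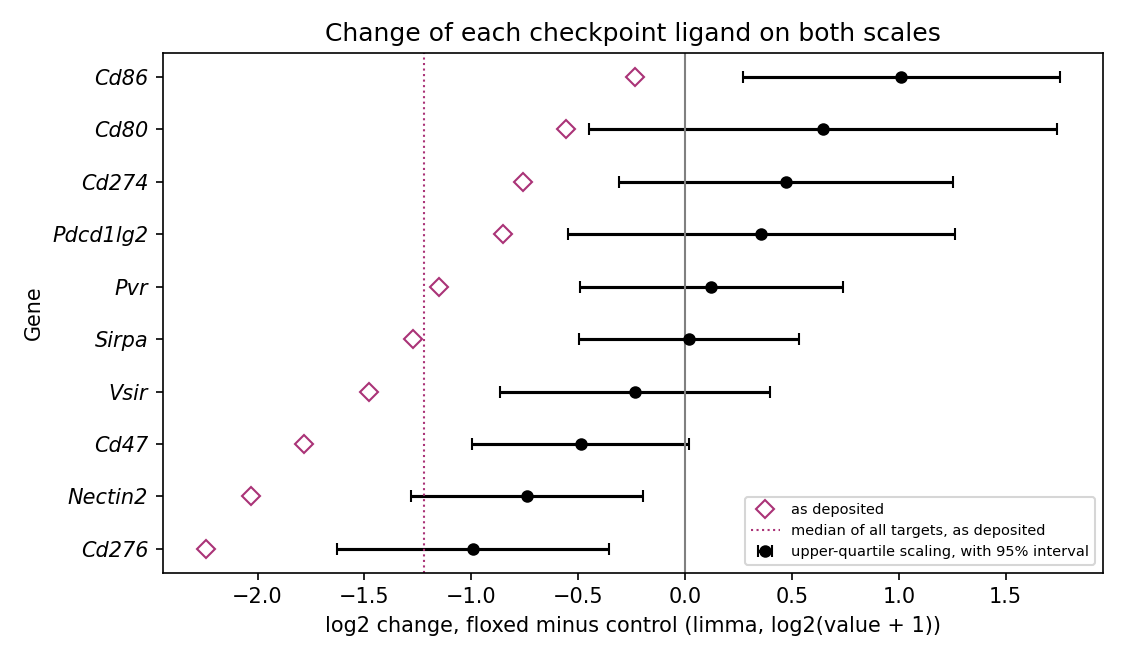
The log2 change of each gene, floxed minus control, from limma on log2(value + 1), with filled points and 95% intervals (unadjusted, 3 regions against 3) after upper-quartile scaling and open diamonds for the values as deposited. The dotted line is the median of all targets as deposited, at -1.22; the order of the genes is the same on both scales, while every deposited value lies below 0.

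Among the nectins, Nectin2 (CD112), which epithelial and endothelial cells carry at their junctions, read 124, 103 and 82.7 in the control and 72.9, 46.5 and 65.6 in the floxed regions. The lowest control value was above the highest floxed value. The log2 change was -0.74 ± 0.25 (SE), with an interval from -1.28 to -0.20 and an adjusted p of 0.251 (limma), and the gene stood well above background throughout, at 15.4 to 21.8 and 5.93 to 13.6 times the negative probe. Pvr (CD155), its relative, read 25.5, 44.2 and 32.4 against 33.3, 49.0 and 29.0, with overlapping groups, a log2 change of 0.12 ± 0.28 (SE) and an adjusted p of 0.897 (limma). The ratio of Pvr to Nectin2 was 0.21, 0.43 and 0.39 in the control and 0.46, 1.05 and 0.44 in the floxed regions, a separation by a narrow margin that was read after the values were seen.

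Cd47, the "do not eat me" signal, and Sirpa, its receptor on myeloid cells, were among the best measured members. Cd47 read 104, 87.1 and 76.9 in the control and 56.2, 56.3 and 78.2 in the floxed regions, with floxed region 3 inside the control range. Its change was -0.49 ± 0.23 (SE), with an interval from -0.996 to 0.02 and an adjusted p of 0.410 (limma). Sirpa read 62.0, 74.3 and 81.5 against 93.7, 66.1 and 63.1 and the groups overlapped. Its change of 0.02 ± 0.24 (SE) had an interval from -0.50 to 0.53 and an adjusted p of 0.985 (limma), which leaves room for changes of up to about that size in either direction. A Sirpa probe may also bind near-identical SIRP genes, so the single gene is uncertain.

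**Figure D3:**
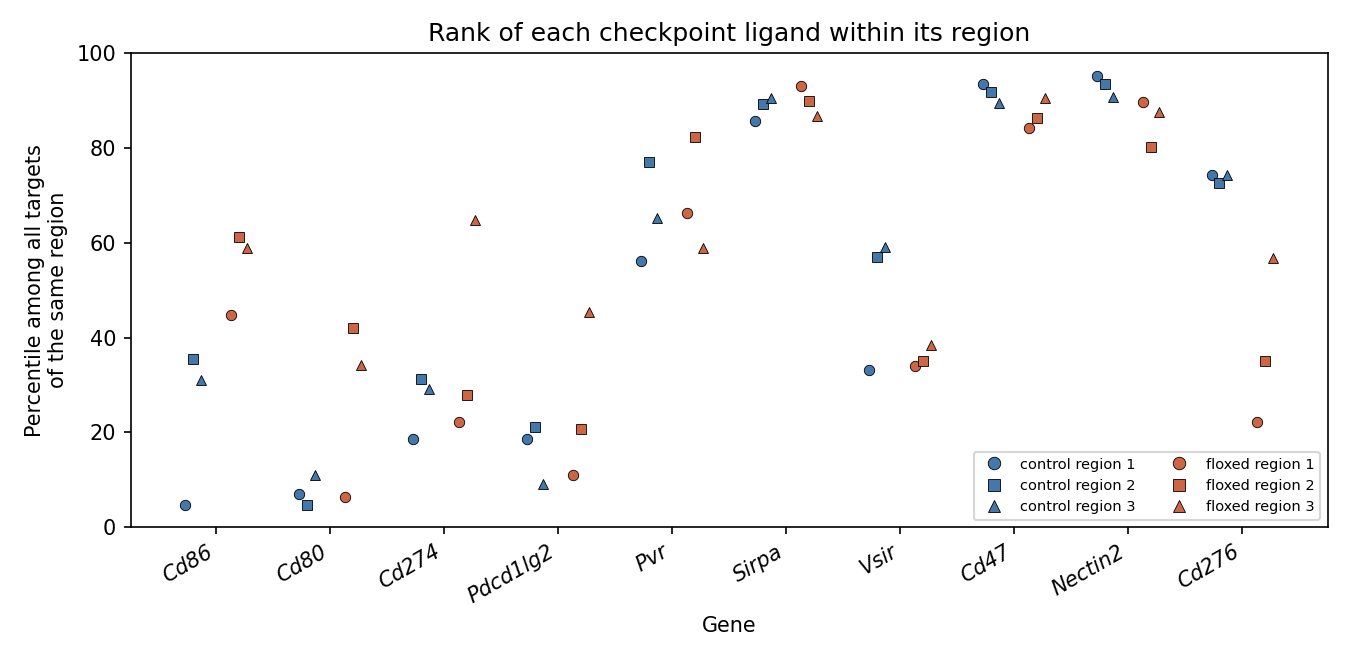
Percentile of each gene among all 13264 targets of the same region, which does not depend on how the regions are scaled; points are single regions. Nectin2, Cd47 and Sirpa rank at percentile 80.2 or above in all regions, Cd276 lies in a narrow band from 72.6 to 74.3 in the control regions and below it in the floxed regions, and Cd274 reaches percentile 64.8 only in floxed region 3.

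The members' calls depended on a single region. Without floxed region 1, 2 members passed the threshold, Cd86 at a log2 change of 1.19 (adjusted p 0.0490) and Nectin2 at -0.87 (adjusted p 0.0405, limma). In that fit, however, 7.7% of all targets were called, 1021 in place of 92. None of the other 5 fits that left out a region called a member. As deposited, 6 members were called lower (Cd276, Nectin2, Cd47, Vsir, Pvr and Sirpa), as were 74.7% of all targets, so that these calls carry the overall shift. With limma's trend on that scale the errors follow the mean level rather than each gene's own spread.

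In the interferon gamma route to Cd274 the transcription factor genes Stat2 and Irf1 rose, and the receptor chains and kinases did not pass the test. Of 8 genes described from this list 2 rose and 0 fell, where 0.581% of all targets rose, and the list median was -0.01 beside 0.02 for all targets. The list was chosen with earlier results of these data known, so the 2 shares set side by side are no test of it. Irf1, a transcription factor that binds the Cd274 gene, read 72.2, 78.8 and 78.6 in the control and 219, 201 and 177 in the floxed regions, and its log2 change of 1.36 ± 0.21 (SE) had an adjusted p of 0.0128 (limma). Stat2, a partner in type I interferon signalling, rose by 1.47 ± 0.25 (SE, adjusted p 0.0237, limma), from 22.8 ± 5.84 to 63.6 ± 6.48 (SD, n = 3 each). Neither gene's groups overlapped. The groups of Irf9, higher in every floxed region, and of Ifngr2, lower in every floxed region, did not overlap either. Over all targets this held for 19.1%. Upstream of Stat2 and Irf1, the log2 changes were -0.05 for Ifngr1, -0.35 for Ifngr2, -0.22 for Jak1 and 0.04 for Jak2, which lies near Cd274 on chromosome 19. Those of Stat3 and Irf9 were -0.10 and 0.82 (adjusted p 0.886 and 0.222, limma). Both calls were lost without control region 1, 2 or 3 or floxed region 3, with negative-probe scaling and without limma's mean-variance trend, and that of Stat2 also without floxed region 2. As deposited, 5 of the 8 genes were called lower and 0 higher, and the changes of Stat2 and Irf1 were 0.19 and 0.06 (adjusted p 0.672 and 0.916, limma). Over the 6 fits with a region left out, the log2 change ran from 1.25 to 1.60 for Stat2 and from 1.29 to 1.44 for Irf1, beside 0.13 to 0.80 for Cd274. Whether the change of Stat2 or Irf1 differs from that of Cd274 was not tested.

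**Figure D4:**
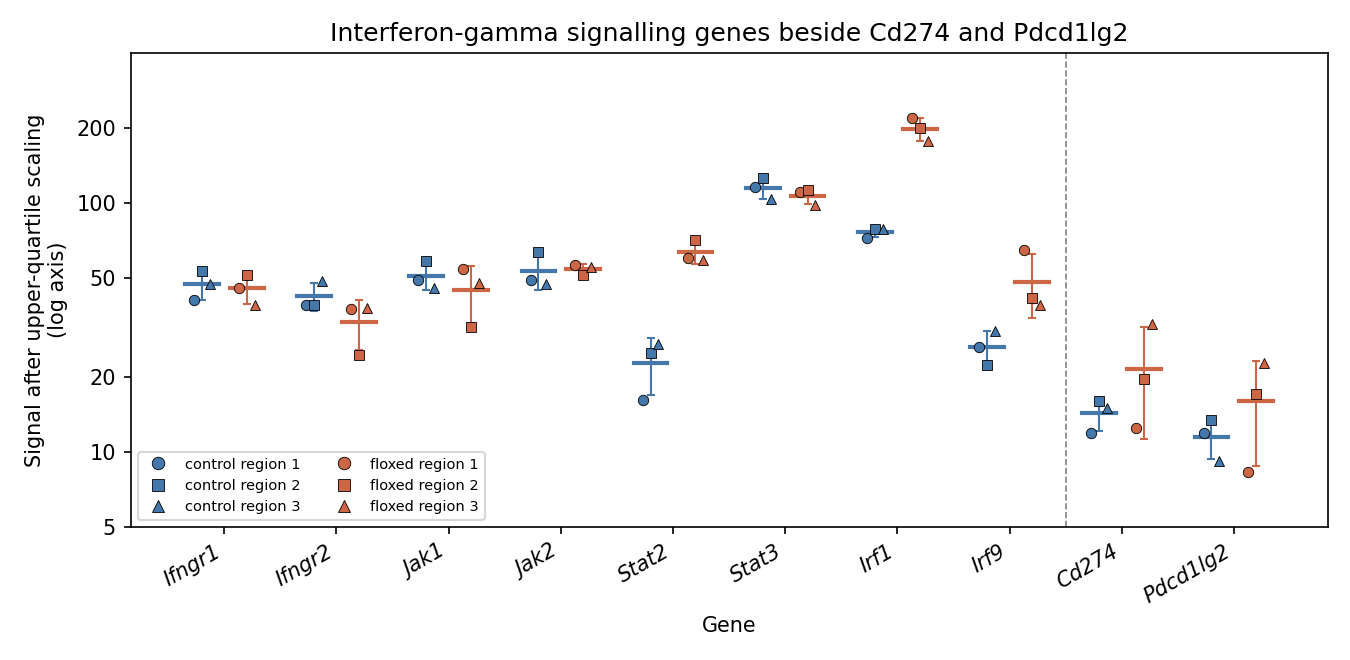
Signal after upper-quartile scaling, on a log axis, of 8 interferon gamma route genes and, right of the dashed line, of Cd274 and Pdcd1lg2; points are regions, bars group means and whiskers SD (n = 3 each). Stat2 and Irf1 separate the groups upward by a wide margin, Irf9 separates upward and Ifngr2 downward, while Cd274 and Pdcd1lg2 overlap.

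Among the receptors of these ligands, Pdcd1 and Ctla4 were faint. Of 11 measured receptors and binding partners 0 were called by limma and 2 had an unadjusted p under 0.05, 6 log2 changes were positive and 5 negative, and the median was 0.18. Pdcd1, the PD-1 gene, read 10.6 ± 2.56 and 14.7 ± 4.26 and Ctla4 10.4 ± 3.19 and 18.2 ± 9.72 (SD, n = 3 each), 1.93 and 1.90 times the negative probe in the control regions. Thbs1, the matrix protein thrombospondin-1 that binds CD47, was the most abundant of the list and read 312, 471 and 231 in the control and 58.3, 169 and 250 in the floxed regions. Its log2 change was -1.25 ± 0.45 (SE, adjusted p 0.271, limma). The change was 0.70 ± 0.30 (SE, adjusted p 0.354) for Selplg, which encodes PSGL-1, a partner of VISTA, and -0.18 ± 0.32 (SE, adjusted p 0.852) for Rgmb, a PD-L2 binding protein.

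Among 15 other checkpoint and costimulatory surface genes 1 rose and 0 fell by limma, and 4 had an unadjusted p under 0.05. Of their log2 changes 8 were positive and 7 negative, with a median of 0.04. The called gene was Cd52, a small glycoprotein of leukocytes, which went from 39.7 ± 7.35 to 101 ± 12.4 (SD, n = 3 each), a log2 change of 1.33 ± 0.23 (SE, adjusted p 0.0237, limma). This call held in 2 of 6 fits with a region left out, those without floxed region 1 or 2, and as deposited the change was 0.03 (adjusted p 0.947). With negative-probe scaling it was 1.12 (adjusted p 0.199, limma). Cd24a, the most abundant gene of the list, had a log2 change of -1.33 ± 0.47 (SE, adjusted p 0.269, limma), with overlapping groups. Proteins that stabilise, modify or degrade PD-L1 and CD47 gave 0 calls in 17 genes by limma, with 3 at an unadjusted p under 0.05 and a median of -0.30. The log2 change was 0.87 ± 0.32 (SE, adjusted p 0.286) for Qpctl, the enzyme that modifies the CD47 site bound by SIRP alpha, -0.70 ± 0.34 (adjusted p 0.426) for Stt3b, a glycosylation subunit, and -0.34 ± 0.27 (adjusted p 0.622) for Cdk4, a cell cycle kinase. Of 4 genes that relay SIRP alpha and PD-1 signals 0 were called by limma and 2 had an unadjusted p under 0.05, and the median was 0.42. The values were 0.78 ± 0.22 (SE, adjusted p 0.167) for Ptpn6, the SHP-1 phosphatase, 0.94 ± 0.27 (adjusted p 0.172) for Fyb, an adaptor of T cells and myeloid cells, -0.13 ± 0.23 for Ptpn11, the SHP-2 phosphatase, and 0.07 ± 0.24 for Skap2, an adaptor in myeloid cells.

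Summed markers of several cell types that can carry these ligands differed in range between the groups. Of 9 measured dendritic cell markers 1, Bst2, rose and 0 fell (limma), and their summed signal was 160 to 208 in the control and 323 to 368 in the floxed regions. Without Bst2, the other 8 gave sums of 136 to 179 and 216 to 236. The 7 T and NK cell markers had 0 calls, 4 at an unadjusted p under 0.05, and sums of 57.8 to 70.5 and 83.3 to 184, with 6 of the 7 under 2 times the negative probe in the control mean. Of 15 macrophage and monocyte markers 1, Lyz2, rose and 0 fell, and the sums overlapped, at 596 to 1005 and 796 to 1130. The 13 tumour epithelium markers had 0 calls, 6 at an unadjusted p under 0.05, and sums of 4327 to 7431 and 1851 to 4052. The 16 fibroblast markers had 0 calls, also with 6 at such a p, and sums of 8654 to 12114 and 5155 to 7392. Abundant matrix genes weighed most in the fibroblast sum. Col1a1 averaged 3353 and 1944 and Col3a1 3049 and 1687 in the control and floxed regions. Of the 16 log2 changes 13 were negative and 3 positive, from -1.44 for Col6a1 to 1.00 for Thy1, with a median of -0.31. Those of Pdgfrb, Postn and Dcn were -0.04, -0.17 and -0.20, and those of Col5a1, Sparc and Acta2 were -1.29, -0.84 and -0.83. Of 6 B and plasma cell markers 3 rose (Igkc, Igha and Jchain), and of 4 neutrophil markers 2 fell (S100a8 and S100a9). The uncalled neutrophil markers, Cxcr2 and Csf3r, had positive log2 changes of 0.39 and 0.16 (adjusted p 0.793 and 0.870, limma). Of the called markers of all these lists Igha held in all 6 fits with a region left out, Igkc in 5, Bst2 in 4 and the other 4 in 2 each. The calls of Bst2 and Lyz2 ended as deposited (adjusted p 0.176 and 0.146), and those of Bst2 and Jchain with negative-probe scaling (adjusted p 0.0525 and 0.108, limma). The 12 hepatocyte and 11 stellate cell markers had 0 calls, with 5 and 1 at an unadjusted p under 0.05, and overlapping sums of 5416 to 6819 and 3607 to 11325 for hepatocytes and 1016 to 1208 and 962 to 1051 for stellate cells. The sums were 58.6 to 85.0 and 491 to 4612 for B and plasma cells and 120 to 157 and 62.4 to 75.9 for neutrophils. Both sums include the called genes and were not taken without them. The 10 endothelial markers had 0 calls, 0 at such a p, and overlapping sums of 195 to 525 and 192 to 423. No marker of these lists was at 0 in any region, but nor was any other target, so this says nothing of their expression. Over all 6 regions some markers averaged under 2 times the negative probe, 1 to 3 in each list concerned. These were the T and NK cell, macrophage, B and plasma cell, neutrophil, tumour epithelium and endothelium lists. The part of these cell types in the members' values was not tested.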

How the data were processed

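The deposited table holds a signal value per target for 6 regions, which per the file headers come from the same slide. How the authors counted tags, chose targets and scaled the deposited signal is not given in the sources at hand; per the labels' protocols tags were amplified and sequenced on an Illumina instrument. In each column about 99.98% of targets were whole multiples of a step within 0.01 step, but the smallest value was above 1 step in 3 columns, so tests for counts were not applied. No column was left out.

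Groups follow the genotype labels. Each region was scaled to the mean upper quartile (75th percentile), and log2(value + 1) of all 13264 targets was tested with limma 3.58.1 in R 4.3.3 (trended eBayes, Benjamini-Hochberg, 0.05). With 3 regions a group the smallest two-sided p that exact permutation allows is 0.1. The fit was tested on simulated data, where it recovered 22% of changes of log2 1 and 75% of changes of log2 2. The members and lists were chosen with earlier results of these data known. A gene of the interferon list is not reported here and is left out of its counts. The text gives all members, the stain and Cre genes, for each of the 5 lists other than cell type markers the called genes or otherwise the 2 most changed and the 2 most abundant, and the 5 targets most correlated with Cd274. Pdcd1, Ctla4, Alb, Cd24a, the called cell type markers, the other cell type markers that are named and the uncalled interferon route genes were added after their values were seen. Figures used matplotlib 3.10.9 in Python 3.11.15.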

Additional observations from a re-analysis of the deposited data

How the results depend on the processing

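With 3 regions a group and 3 to 62 steps behind a member in the floxed regions, the absence of a member's call does not show that it did not differ. Members called were 6 as deposited and 0 to 2 with a region left out, the 2 without floxed region 1, and 0 with the other 8 settings tried (total, quantile and negative-probe scaling, negative-probe subtraction, pseudocounts of 0.5 and 5, a filter at 2 times the negative probe, and no mean-variance trend). Targets called were 92 with upper-quartile scaling, 9926 as deposited, 23 with negative-probe scaling, 0 without the trend and 15 to 1021 with a region left out (21 and 34 without control regions 2 and 3, 23 without floxed region 3). The share of higher calls was 77 of 92 after scaling and 21 of 9926 as deposited.

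Of 150 refitted log2 changes of members, 132 kept direction and side of the threshold, 6 gained a call in the same direction and 12 changed sign, 2 of these (Pvr and Sirpa as deposited) with a call, so that 8 were called in all. As deposited the sign turned for Cd274 (-0.76), Cd80 (-0.56), Cd86 (-0.24), Pdcd1lg2 (-0.85), Pvr (-1.15) and Sirpa (-1.28), where the median of all targets was -1.22. The near-zero changes of Pvr and Sirpa also turned with negative-probe scaling (-0.0786 and -0.183) and without control region 1 (-0.0623 and -0.0888), that of Pvr without floxed region 2 (-0.0916) and that of Sirpa without floxed region 1 (-0.158). With a region left out the ranges were 0.13 to 0.80 for Cd274, 0.07 to 0.74 for Pdcd1lg2, 0.29 to 1.20 for Cd80, 0.67 to 1.21 for Cd86, -1.23 to -0.68 for Cd276, -0.89 to -0.55 for Nectin2, -0.0916 to 0.32 for Pvr, -0.16 to 0.12 for Sirpa, -0.65 to -0.38 for Cd47 and -0.48 to -0.09 for Vsir. The cause of these dependences was not tested. The count model planned as an alternative was not run, because whole tag numbers could not be established for all columns. No paired analysis was possible because the labels give the regions no shared replicate numbers.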
